A study of Mus musculus with 10 samples.

Results

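The genes described here handle zinc, iron and copper in the cell. They were chosen by gene symbol: every zinc transporter of the Slc30a and Slc39a families on the array, and 18 named genes for metal binding, transport, storage and control. The rule found 39 genes on 65 probes, of 18138 gene symbols on 25697 probes in all. By metal these were 24 zinc, 10 iron and 5 copper genes. The tissue was ileum, the final stretch of the small intestine, from mice aged 3 to 4 months on the FVB/N strain, with 5 arrays from mice of the genotype iPGC-1β and 5 from wild-type littermates. In this field the name iPGC-1β stands for mice that overexpress the coactivator PGC-1β in intestinal epithelium, where it is known to raise mitochondrial genes. The labels do not spell this out and name no promoter.

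Intestinal epithelial cells take metals up at their brush border, hand them over inside the cell and export them to the blood side. For zinc, Slc39a (ZIP) proteins bring the metal into the cytosol, Slc30a (ZnT) proteins move it out or into vesicles, and metallothioneins bind it. For iron, Slc11a2 imports, ferritin stores and Slc40a1 exports together with the copper enzyme hephaestin. For copper, Slc31a1 imports, Atox1 carries and the ATPase Atp7a exports.

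Each array gave between 12370 and 12771 probes above background at a detection p under 0.05, and 9365 genes were tested. Arrays of 1 group correlated at 0.959 or more over these genes. Probes of the ileal genes Fabp6, Osta and Ostb were above background on all 10 arrays and that of Fgf15 on 9 of 10. The probe of the ileal bile acid transporter gene Slc10a2 was above background on 0 of 10 arrays. Ppargc1b, the gene of PGC-1β, read 8.34, 8.42, 7.93, 8.40 and 8.49 on the wild-type arrays and 7.32, 8.22, 7.38, 7.54 and 8.05 on the iPGC-1β arrays (log2 intensity). It was lower on the iPGC-1β arrays, with a log2 difference of -0.61 and a 95% interval from -1.03 to -0.20 (limma's adjusted p = 0.0452), with overlapping groups, and kept that call under 13 of 24 alternatives. This direction goes against the overexpression that the genotype name stands for. Which stretch of the mRNA that probe reads is not stated, and one that misses the sequence of a transgene does not check the labels. Every direction given here rests on the arrays as labelled.

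Among the metal handling genes, 3 zinc transporter genes were lower on the iPGC-1β arrays, the copper importer gene was higher and the copper exporter gene lower, and the transferrin receptor gene was higher and the hephaestin gene lower. Of the 39 genes, 28 had a probe above background on at least 5 arrays and were tested; all of these but Mtf1, Slc39a3 and Slc31a2 were above background on all 10. Of these 28, 2 rose, 5 fell and 21 did not pass limma's test at an adjusted p under 0.05. Over all 9365 genes, 9.88% rose, 7.41% fell and 17.3% passed in either direction. The 7 metal handling genes that passed make up 25.0% of those tested. The arrays of the groups did not overlap for 6 of the 28 genes, 3 of them higher with iPGC-1β and 3 lower. Over all genes 14.3% did not overlap, 8.66% higher and 5.62% lower. The median log2 change was -0.07 over the 28 genes and -0.05 over all genes. By metal it was -0.26 for 17 zinc genes, 0.19 for 7 iron genes and -0.03 for 4 copper genes. The iron median was 0.071 under median centring, 0.094 without background correction, 0.096 with the authors' values and 0.11 with no filter. The median over all genes moved too, to -0.097, -0.026, -0.026 and -0.014 in the same order.

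**Figure D1:**
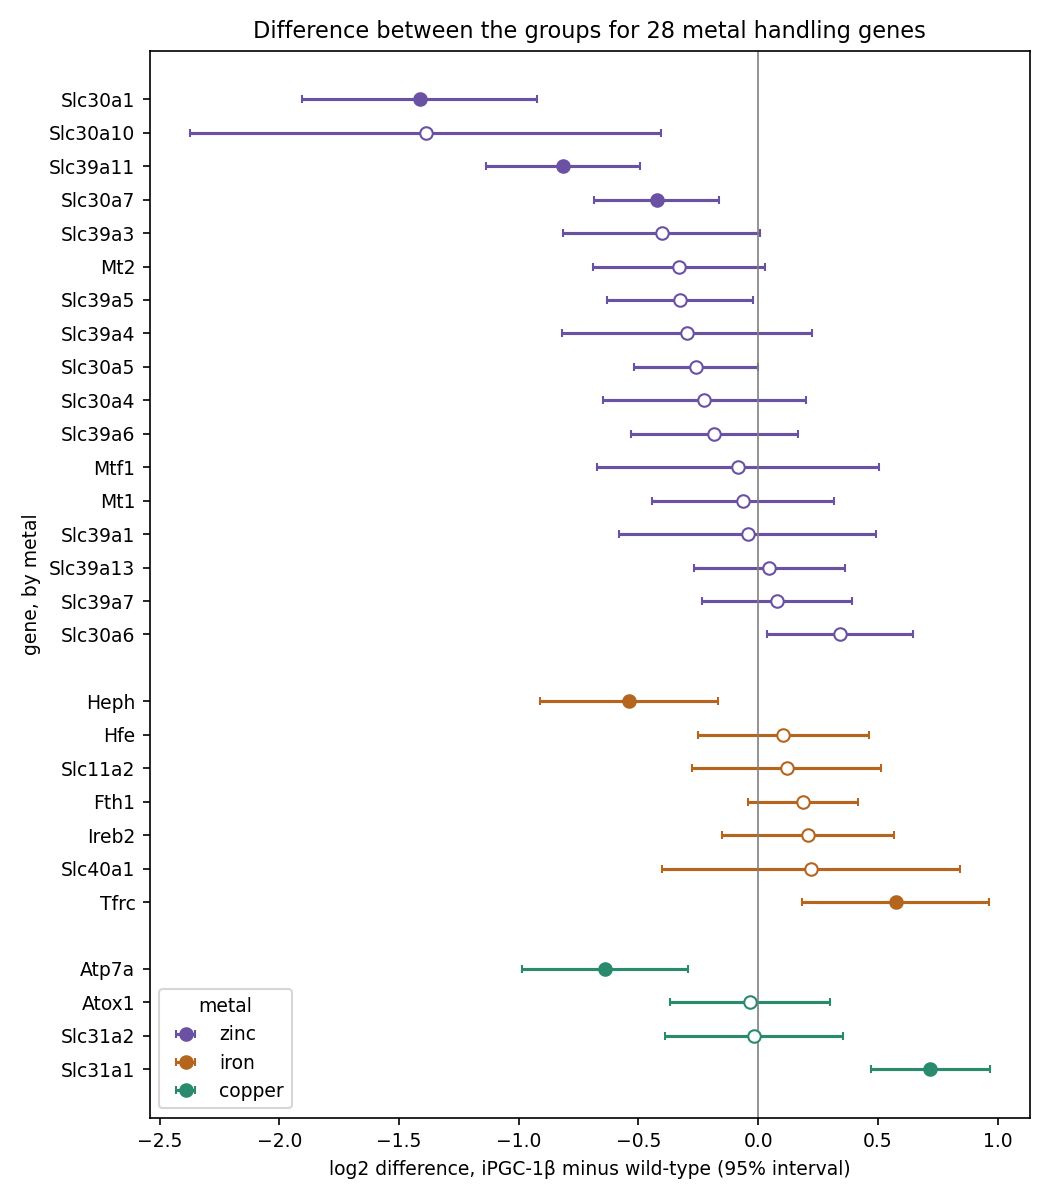
Log2 difference of iPGC-1β minus wild-type (x axis) for the 28 tested genes (y axis), grouped by metal in colour, with 95% intervals from limma and 5 arrays per group. Filled points passed an adjusted p under 0.05. Slc30a1 lies farthest to the left at -1.41 and Slc31a1 farthest to the right at 0.72.

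Of 17 zinc genes tested, 0 rose and 3 fell, and at an unadjusted p under 0.05 in limma 1 was higher and 5 were lower. Over all genes, 9.88% rose and 7.41% fell, and 15.2% were higher and 16% lower at that unadjusted threshold. The difference was below 0 for 14 of the 17, and for 5223 of the 9365 genes overall. The median of -0.26 became -0.12 without background correction, where that over all genes was -0.026. Among 6 tested Slc30a genes, the exporters, 2 fell and 0 rose, and the median was -0.34. At the unadjusted threshold 3 of them were lower and 1 was higher. Among 8 tested Slc39a genes, the importers, 1 fell and 0 rose, and the median was -0.24. At the unadjusted threshold 2 of these were lower and 0 higher.

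The largest difference was that of Slc30a1, which encodes ZnT1, the zinc exporter of the cell surface. Its log2 intensity was 8.01, 8.34, 8.14, 8.16 and 9.04 on the wild-type arrays and 7.10, 6.79, 6.59, 6.60 and 7.54 on the iPGC-1β arrays. All 5 iPGC-1β arrays lay below the lowest wild-type array. The log2 change was -1.41 ± 0.23 (SE), or 2.67-fold lower, with limma's adjusted p = 0.00101. It passed the test under all 24 alternative settings. Without background correction the change was -0.91.

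Zinc is known to act on Slc30a1 and on the metallothionein genes through a shared promoter element, the metal response element, which the factor MTF-1 binds. The 250 bases before the start of these genes are shown because these are known targets of that factor, of which Slc30a1 passed the test and Mt1 and Mt2 did not. They come from RefSeq on the build GRCm38.p6, + strand, at chr1:191906531-191906780 for Slc30a1, chr8:94178839-94179088 for Mt1 and chr8:94172368-94172617 for Mt2. Capitals mark the core of the element, TGCACNC or TGCGCNC, found on either strand.
Slc30a1: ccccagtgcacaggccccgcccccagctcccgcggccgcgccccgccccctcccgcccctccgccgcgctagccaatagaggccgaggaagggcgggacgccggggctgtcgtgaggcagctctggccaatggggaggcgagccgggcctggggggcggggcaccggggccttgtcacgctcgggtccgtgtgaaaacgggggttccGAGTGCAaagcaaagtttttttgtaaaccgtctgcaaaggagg
Mt1: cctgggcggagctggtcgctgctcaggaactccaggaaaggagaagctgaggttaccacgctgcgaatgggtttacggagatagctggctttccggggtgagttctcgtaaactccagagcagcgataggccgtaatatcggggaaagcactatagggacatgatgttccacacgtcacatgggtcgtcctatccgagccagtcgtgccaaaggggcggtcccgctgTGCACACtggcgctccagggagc
Mt2: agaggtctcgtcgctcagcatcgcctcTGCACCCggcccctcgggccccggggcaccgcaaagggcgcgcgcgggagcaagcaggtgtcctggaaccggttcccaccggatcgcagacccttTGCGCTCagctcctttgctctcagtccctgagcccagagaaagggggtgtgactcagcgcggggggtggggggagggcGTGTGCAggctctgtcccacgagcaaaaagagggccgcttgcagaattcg
Slc30a1 and Mt1 hold 1 match each in this window and Mt2 holds 3. Bases after the start or farther before it were not searched for this core, so these counts are not totals for the genes. At least 1 match lies in 21.4% of the 32851 promoter windows of the same length in that table, and at least 3 in 1.26%. Of the 7 metal handling genes that passed the test, 6 are in the table, and 4 hold a match in at least 1 window. These are Slc30a1, Slc39a11, Tfrc and Atp7a. Slc39a11 and Tfrc have 2 windows each, and that of the second start of Tfrc holds 0 matches. This count by gene is therefore not on the same footing as the share by window. The matches of Tfrc, 1 on each strand, overlap. The loop letters of the iron response element, CAGTGN, were found on the given strand within 50 bases after the start for 0 of these 6 genes, and in 7.08% of all windows. The rest of each mRNA, including its 3' end, was not searched. An element there would be missed, so this does not show that any of these genes lacks one.

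The metallothionein genes did not pass the test. Mt1 encodes a small cysteine-rich protein that buffers zinc and copper. It read 13.48, 14.18, 13.79, 13.59 and 14.20 on the wild-type arrays and 13.87, 13.96, 13.74, 13.94 and 13.41 on the iPGC-1β arrays. The groups overlapped throughout, with a log2 difference of -0.06 and a 95% interval from -0.44 to 0.32. Mt2, its close relative, differed by -0.33 (interval -0.69 to 0.03, limma's adjusted p = 0.195), with 4 of the 5 iPGC-1β arrays below all wild-type arrays. Mtf1, the gene of MTF-1 itself, was above background on 3 wild-type and 2 iPGC-1β arrays, with a difference of -0.09 (interval -0.68 to 0.50). The interval of Slc30a1, -1.91 to -0.92, lies below those of these 3 genes. The probe of Mt1 was bright, however, and those of Mt2 and Mtf1 were dim. Median signals on the wild-type arrays were 13313 for Mt1, 188.5 for Mt2 and 151.5 for Mtf1. The medians of whole arrays ran from 127.7 to 155.1. Changes read at such unlike levels may not compare, and a cause shared with Slc30a1 was not tested.

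The other exporters varied. Slc30a7, which loads zinc into the secretory pathway, read 7.92, 8.00, 8.15, 7.91 and 8.33 on the wild-type arrays and 7.65, 7.65, 7.61, 7.63 and 7.65 on the iPGC-1β arrays. The iPGC-1β values were close together (SD 0.017, against 0.18 in wild-type) and all lay below the wild-type values. Slc30a7 fell by 0.42 on the log2 scale (SE 0.12, limma's adjusted p = 0.0295), and its other probe differed by -0.51 (adjusted p = 0.0308 over all probes). The call was lost without iPGC-1β replicate 3, 4 or 5 (limma's adjusted p = 0.0586, 0.0578 and 0.0523), and with the enterocyte marker mean as a covariate (-0.56, adjusted p = 0.0621). It was also lost under a 1.5-fold minimum and without both wild-type replicate 5 and iPGC-1β replicate 3 (-0.35, limma's adjusted p = 0.0699).

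Slc30a10 encodes a transporter of the zinc family that is known to export manganese. It read 8.65, 9.44, 10.13, 8.80 and 6.93 on the wild-type arrays and 7.98, 7.59, 7.26, 6.91 and 7.27 on the iPGC-1β arrays. Of the wild-type arrays, 4 lay above all iPGC-1β arrays, and wild-type replicate 5 lay among them. The log2 difference of -1.39 ± 0.46 (SE) did not pass limma's test (adjusted p = 0.0529). Without wild-type replicate 5 it was -1.86 with limma's adjusted p = 0.00127. The enterocyte covariate brought it to -0.40 (adjusted p = 0.728).

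Slc30a5 and Slc30a6, whose products work together in loading secretory enzymes with zinc, had differences of opposite sign. Slc30a5 lay at -0.26 (interval -0.52 to 0.0011) and Slc30a6 at 0.34 (interval 0.035 to 0.65), with limma's adjusted p = 0.162 and 0.119. For Slc30a6, 4 of the 5 iPGC-1β arrays lay above all wild-type arrays. Slc30a4, a vesicular exporter gene, differed by -0.22 (adjusted p = 0.472).

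Among the importers, Slc39a11 fell. It encodes ZIP11, a zinc transporter of the ZIP family. Its log2 intensity was 9.88, 9.80, 10.01, 9.82 and 9.85 on the wild-type arrays and 8.76, 9.44, 8.75, 9.14 and 9.19 on the iPGC-1β arrays. The groups did not overlap, and the wild-type arrays lay within a narrow range. The log2 change was -0.81 ± 0.15 (SE), or 1.76-fold lower, with limma's adjusted p = 0.00241. Under the 24 alternatives it lay between -0.93 and -0.70 and always passed.

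Slc39a4, the main zinc importer of the intestinal brush border, whose loss causes the human zinc deficiency acrodermatitis enteropathica, did not pass. It ranged from 11.89 to 12.88 on the wild-type and from 11.44 to 12.53 on the iPGC-1β arrays, a difference of -0.30 (interval -0.82 to 0.22, limma's adjusted p = 0.435). Its other probe differed by 0.06. Slc39a5, an importer of the blood-facing membrane, differed by -0.33 (adjusted p = 0.132), with 4 of the 5 iPGC-1β arrays below all wild-type arrays. Its other kept probes differed less, by -0.24, -0.15 and 0.0064. The kept probes of Slc39a3 disagreed, at -0.40 and 0.11. Slc39a6 lay at -0.18, Slc39a1 at -0.04, Slc39a13 at 0.05 and Slc39a7, which releases zinc from the endoplasmic reticulum, at 0.08. Their adjusted p-values lay between 0.476 and 0.927 in limma. The other kept probe of Slc39a13 differed by 0.35 (limma's adjusted p = 0.255 over all probes).

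**Figure D2:**
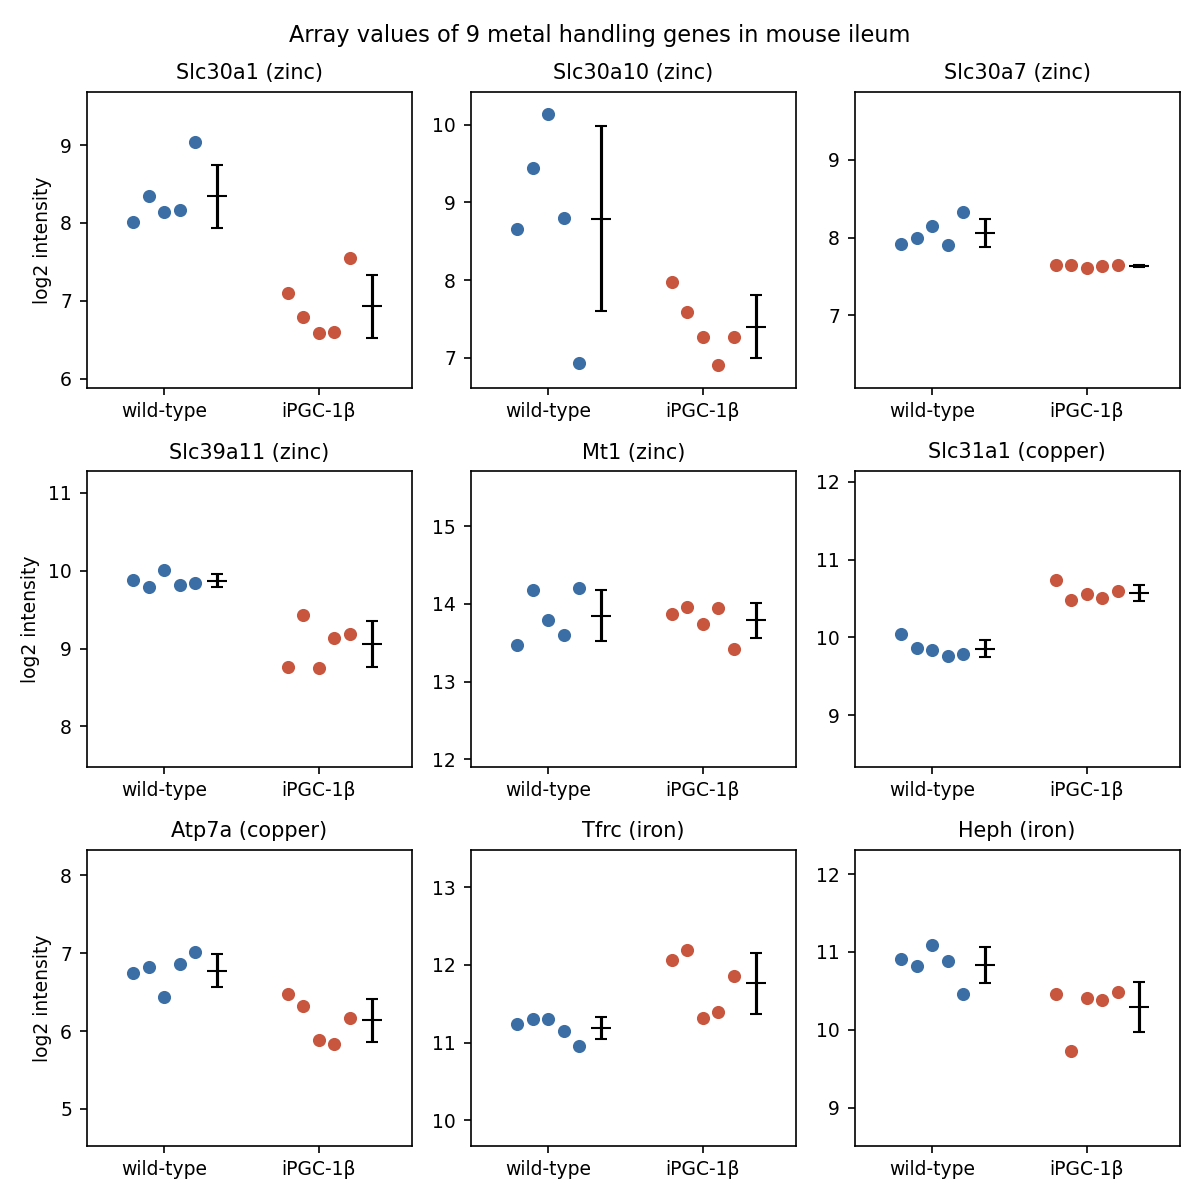
Log2 intensity (y axis, each panel spanning the same range) of 9 genes on the 5 wild-type (blue) and 5 iPGC-1β arrays (red), in order of replicate number. Black marks give the mean ± SD. The groups are apart for Slc30a1, Slc30a7, Slc39a11, Slc31a1 and Tfrc. Mt1 lies between 13.41 and 14.20 on all arrays, and wild-type replicate 5 stands apart for Slc30a10.

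Copper import and export genes moved in opposite directions. Slc31a1 encodes CTR1, the copper importer of the cell surface. It read 10.04, 9.86, 9.84, 9.76 and 9.78 on the wild-type arrays and 10.73, 10.48, 10.56, 10.51 and 10.60 on the iPGC-1β arrays. All iPGC-1β arrays lay above all wild-type arrays. The log2 change was 0.72 ± 0.12 (SE), or 1.65-fold higher, with limma's adjusted p = 0.00101. It passed under all 24 alternatives, between 0.66 and 0.76.

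Atp7a encodes the ATPase that exports copper from enterocytes and loads it into secreted enzymes; its loss causes Menkes disease in humans. It read 6.75, 6.82, 6.44, 6.86 and 7.01 on the wild-type arrays and 6.48, 6.33, 5.88, 5.84 and 6.16 on the iPGC-1β arrays. Of the iPGC-1β arrays, 4 lay below all wild-type arrays, and the remaining one only above wild-type replicate 3. The log2 change was -0.64 ± 0.16 (SE), with limma's adjusted p = 0.0154. The change was -0.28 without background correction and -1.10 with the enterocyte covariate, past the threshold in both settings. It did not pass when wild-type replicate 5 and iPGC-1β replicate 3 were left out together (-0.52, adjusted p = 0.0531).

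The carrier between them did not differ detectably. Atox1, the copper chaperone that delivers to Atp7a, differed by -0.03 (interval -0.37 to 0.30), and Slc31a2, the related transporter CTR2, by -0.02 (interval -0.39 to 0.35). Atp7b, the copper ATPase best known from liver, had 4 probes, each above background on at most 1 array, and was not tested.

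Among the iron genes, Tfrc rose and Heph fell, 1 of 7 tested in each direction, where over all genes 9.88% rose and 7.41% fell. Tfrc encodes the transferrin receptor, which takes up transferrin-bound iron from the blood side and is controlled through its mRNA by iron regulatory proteins. It read 11.23, 11.30, 11.30, 11.15 and 10.96 on the wild-type arrays and 12.06, 12.20, 11.31, 11.39 and 11.86 on the iPGC-1β arrays. The groups did not overlap, but iPGC-1β replicates 3 and 4 lay just above the wild-type arrays. The log2 change was 0.57 ± 0.18 (SE, limma's adjusted p = 0.0445), and the other probe gave 0.57 (adjusted p = 0.0482 over all probes). The call was kept under 12 of 24 alternatives. It was lost without any 1 array other than iPGC-1β replicates 3 and 4 (limma's adjusted p between 0.0670 and 0.0903). With the enterocyte covariate the change was 0.30 (adjusted p = 0.497).

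Heph encodes hephaestin, the copper-dependent oxidase that works with ferroportin in iron export. It read 10.91, 10.82, 11.09, 10.89 and 10.46 on the wild-type arrays and 10.46, 9.73, 10.41, 10.39 and 10.48 on the iPGC-1β arrays. Wild-type replicate 5 lay at the level of the iPGC-1β arrays. The log2 change was -0.54 ± 0.17 (SE, limma's adjusted p = 0.0477). Adjusted over all kept probes its p was 0.0510, and the other kept probes gave -0.65 (adjusted p = 0.0106) and -0.45 (adjusted p = 0.261). The call was kept under 11 of 24 alternatives; of the 10 arrays, leaving out any but wild-type replicate 5 lost it (limma's adjusted p between 0.0531 and 0.112). With the enterocyte covariate the change was -0.08 (adjusted p = 0.853).

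The other iron genes did not pass. Fth1, the heavy chain of the iron store ferritin, read 14.54, 14.46, 14.51, 14.40 and 14.42 on the wild-type arrays and 14.57, 14.66, 14.69, 14.64 and 14.69 on the iPGC-1β arrays. The groups did not overlap, yet the log2 difference was small, at 0.19 (interval -0.04 to 0.42, limma's adjusted p = 0.253). It was 0.02 under median centring, and the deposited signals overlapped, from 22162 to 27056 on the wild-type and from 22984 to 25274 on the iPGC-1β arrays. The size of the Fth1 difference thus varied with the normalization. Whether its groups stay apart under the other settings was not tested. Slc40a1, which encodes the iron exporter ferroportin, spread widely within both groups, from 10.07 to 11.12 and from 9.94 to 11.33, with a difference of 0.22 (interval -0.40 to 0.84). It was -0.68 with the enterocyte covariate. Slc11a2, the importer DMT1, differed by 0.12 (interval -0.28 to 0.51), the iron regulatory protein gene Ireb2 by 0.21 (interval -0.15 to 0.57) and Hfe, the hemochromatosis gene, by 0.11 (interval -0.25 to 0.46).

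The remaining 11 genes gave no comparison. The probes of Ftl1, the light chain of ferritin, of Cybrd1, an iron reductase of the duodenal brush border, and of the zinc transporter genes Slc30a3, Slc39a8, Slc39a10 and Slc39a12 were above background on 0 of 10 arrays. Hamp, the gene of the iron hormone hepcidin, known from liver, reached 2 arrays. Slc39a14 reached 3, and Slc30a8 and Slc30a9 at most 4. A dim probe gives only a bound on the gene, and 1 or a few probes may miss the transcript.

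**Figure D3:**
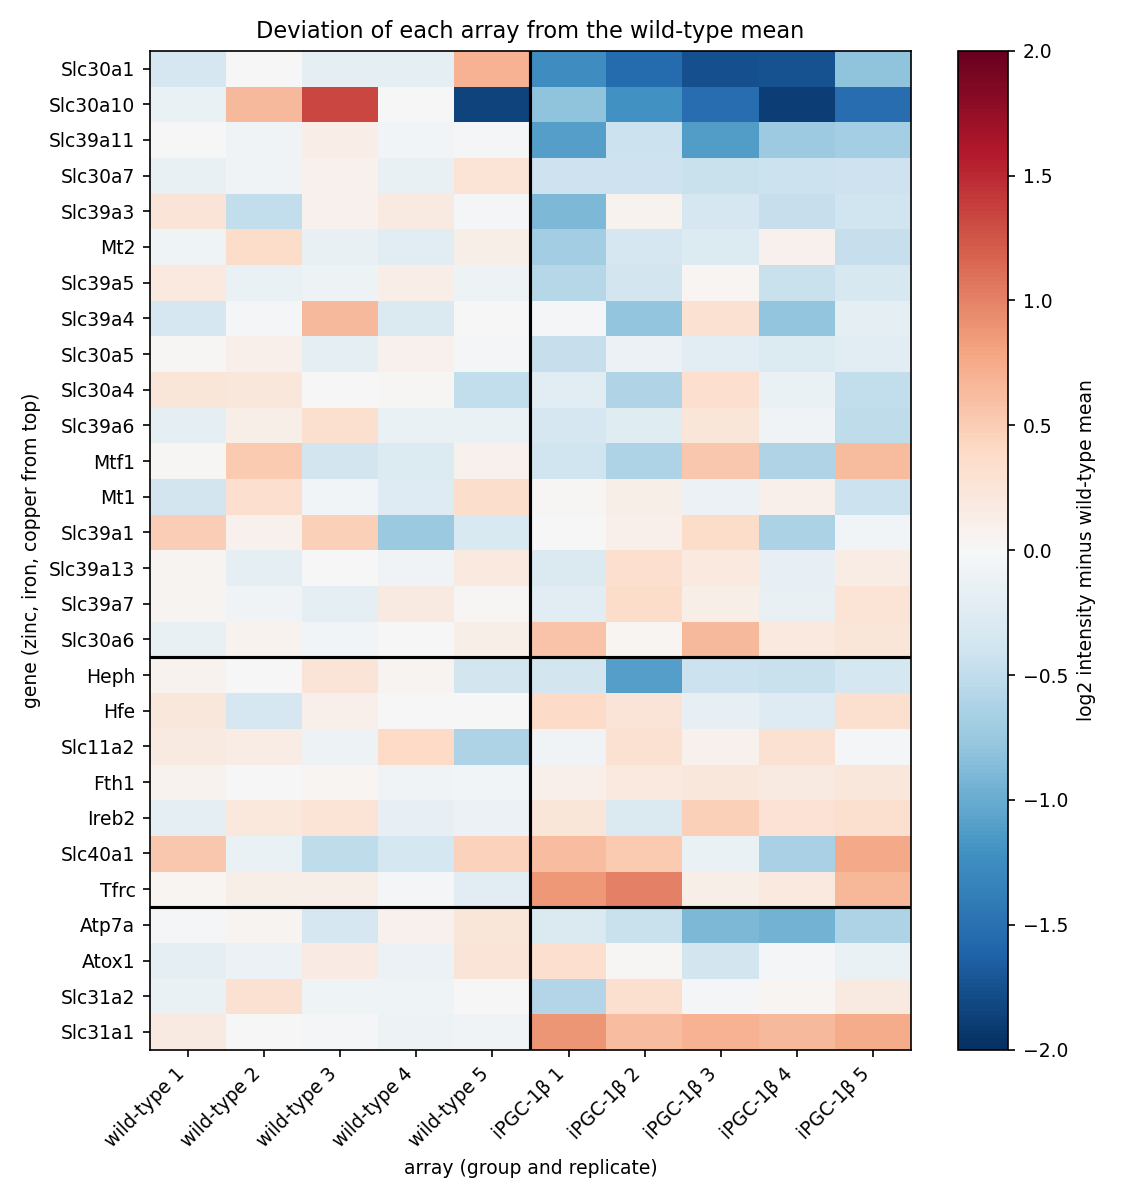
Log2 intensity of each array (x axis) minus the mean of the 5 wild-type arrays, for the 28 tested genes (y axis, zinc, iron and copper from the top); blue is below and red above the wild-type mean. Slc30a1, Slc39a11, Slc30a7, Slc30a10, Slc30a5, Heph and Atp7a are below it on all 5 iPGC-1β arrays. Slc31a1, Tfrc, Fth1 and Slc30a6 are above it on all 5. Of these genes, Slc30a10, Slc30a5, Fth1 and Slc30a6 did not pass limma's test. Slc30a10 on wild-type replicate 5 is as low as on the iPGC-1β arrays.

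Other genes of metal metabolism were read from lists that leave these 39 out. Of 14 tested copper genes, 4 rose, 1 fell and 9 did not pass limma's test, with a median log2 change of 0.16. Over all genes 9.88% rose and 7.41% fell. The 4 copper genes that rose act in mitochondria. Cox17 (0.77 ± 0.17, SE), Cox11 (1.03 ± 0.20) and Cox19 (0.51 ± 0.13) help to deliver copper to cytochrome oxidase, and Slc25a3 (0.50 ± 0.16) carries phosphate and copper into the matrix. App, the gene of a copper-binding membrane protein, changed by -0.44. Limma's adjusted p lay between 0.00398 and 0.0496 for these genes. The call of Slc25a3 was kept under 10 and that of App under 11 of 24 alternatives, and the change of Cox11 was 0.52 without background correction. With the enterocyte covariate the calls of Cox17 (0.58, adjusted p = 0.170) and Cox19 (0.59, adjusted p = 0.0662) were lost.

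Of 23 other tested iron genes, 0 rose and 3 fell in limma, with 1 higher and 3 lower at an unadjusted p under 0.05 and a median of -0.08. Over all genes 9.88% rose and 7.41% fell, and 15.2% were higher and 16% lower at that unadjusted threshold. Lcn2, which encodes a lipocalin that binds bacterial iron carriers, changed by -1.04 ± 0.18 (SE, limma's adjusted p = 0.00143). It read 7.40, 7.35, 7.38, 7.10 and 7.24 on the wild-type arrays and 6.28, 6.43, 5.66, 6.18 and 6.70 on the iPGC-1β arrays, with no overlap, and changed by -0.51 without background correction. Id1, a target of the BMP pathway that controls hepcidin, changed by -0.97 and Neo1, the gene of neogenin, which binds the BMP co-receptor hemojuvelin, by -0.74. With the enterocyte covariate Id1 was at -0.63 and Neo1 at -0.66, and neither passed (limma's adjusted p = 0.277 and 0.0875). Of the other zinc genes only Car4, a zinc-containing carbonic anhydrase of the brush border, was bright enough to test; it changed by -1.25 ± 0.25 (SE, adjusted p = 0.00438).

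Markers of absorptive enterocytes, the cells in which most of these transporters act, moved with the groups. Of 17 tested, 7 fell and 0 rose in limma, with 11 lower and 0 higher at an unadjusted p under 0.05, and the median log2 change was -0.63. Over all genes 7.41% fell, and 16% were lower at that unadjusted threshold. The enterocyte marker mean ran from 10.97 to 11.70 on the wild-type and from 10.48 to 11.12 on the iPGC-1β arrays, with wild-type replicate 5 the lowest of its group. Of 7 tested markers of distal ileum, 3 fell (Fgf15, Ostb and Mep1b) and 0 rose in limma, with 3 lower and 0 higher at an unadjusted p under 0.05. Their mean ran from 11.69 to 11.99 on the wild-type and from 11.04 to 11.53 on the iPGC-1β arrays, with no overlap. Its part in the differences of the metal handling genes was not tested. Mep1b is also among the enterocyte markers that fell. Of 5 tested markers of duodenum and jejunum, 2 fell (Onecut2 and Gip) and 0 rose in limma. At an unadjusted p under 0.05, 2 of these were lower and 1 was higher. In whole ileum, fewer cells of a type and less RNA per cell cannot be told apart. With the enterocyte marker mean as a covariate, Slc30a1 (-1.98), Slc39a11 (-0.93), Slc31a1 (0.73) and Atp7a (-1.10) kept their calls, and Slc30a7, Tfrc and Heph did not. The covariate itself differs between the groups, and the part of enterocytes in these differences was not tested.

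Other cells also carry these genes. Of 13 tested Paneth cell markers, a cell type known for its zinc-rich granules, 1 fell and 0 rose in limma. At an unadjusted p under 0.05, 2 were lower and 0 higher, and the median log2 change was -0.25. Their mean ran from 11.96 to 13.02 on the wild-type and from 11.79 to 12.90 on the iPGC-1β arrays. Of 15 tested markers of crypt stem and proliferating cells, which carry much transferrin receptor, 1 fell and 0 rose in limma. At that unadjusted threshold 3 were lower and 0 higher, with a median of -0.19. The crypt mean ran from 7.54 to 8.35 and from 7.45 to 7.96. Over all genes 9.88% rose and 7.41% fell, and 15.2% were higher and 16% lower at the unadjusted threshold. For erythroid cells 4 of 9 markers on the array were tested, and for macrophages 12 of 14; limma called 0 of either at the adjusted threshold and 0 at an unadjusted p under 0.05. The erythroid markers Slc4a1, Epor, Klf1 and Ermap were among those too dim to test. The erythroid mean ran from 6.20 to 8.57 on the wild-type and from 6.29 to 7.20 on the iPGC-1β arrays, and the macrophage mean from 7.30 to 7.93 and from 6.69 to 7.80. The part of these cells in the differences of the metal handling genes was not tested.

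**Figure D4:**
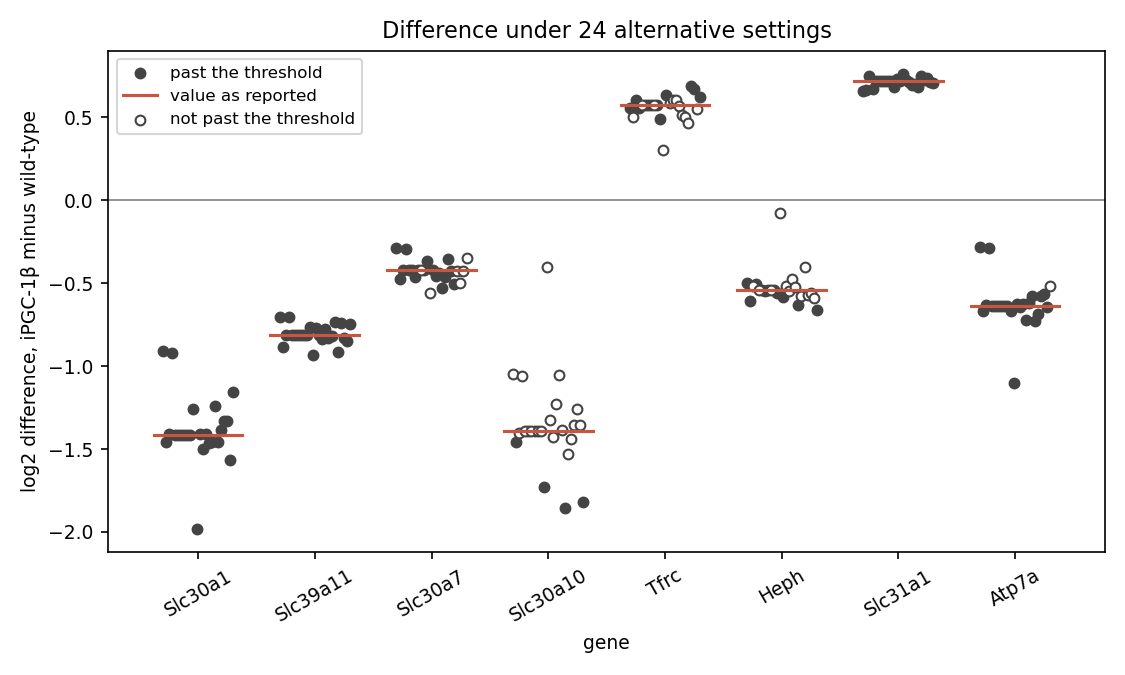
Log2 difference of iPGC-1β minus wild-type (y axis) for 8 genes (x axis) under the 24 alternative settings, each a point, filled where it passed that setting's threshold; red lines give the value as reported. Slc30a1, Slc39a11 and Slc31a1 are filled throughout, and no gene shown crosses 0.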

How the data were processed

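Biotin-labelled total RNA was read on Illumina arrays, per the labels' protocols; the submitters' processing notes list GenomeStudio. Per the file headers, the deposited table gives each probe's average signal on each array, a linear intensity, with its detection p-value. Another table has the authors' processed intensities, with a median of 141.7 on each array and no stated method. 0 columns of sample values were left unused.

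Intensities were background-corrected with normexp from the detection p-values (offset 16), quantile-normalized and log2-transformed (neqc, limma 3.58.1, R 4.3.3). Probes with a detection p under 0.05 on at least 5 arrays were kept (12349), and the brightest kept probe stood for each gene. Groups were compared with limma (lmFit, eBayes, no covariates), adjusted by Benjamini-Hochberg over all 9365 genes, and the pipeline was tested on simulated data. Changes are iPGC-1β minus wild-type. Levels of different probes are not comparable. The labels name neither litters nor slides nor pools. The p-values therefore reflect only variation among these arrays, which may be technical, and their number limits the precision. Replicate numbers only name arrays.

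All tested members are named, and at most 6 other genes that passed the test per list. The members and lists were chosen with earlier results of these data known. Promoter sequences are RefSeq's (GRCm38.p6); Heph was not matched. Alternatives were no background correction, median centring, cyclic loess, the authors' values, no filter, a filter at 0.01 in detection p on all 10 arrays, the mean of a gene's probes, a threshold of 0.10, a 1.5-fold minimum, trended robust variance, array weights, enterocyte or smooth muscle marker means as covariates, each array left out, and wild-type replicate 5 with iPGC-1β replicate 3 left out. The fit over all kept probes was chosen after seeing the data.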

Additional observations from a re-analysis of the deposited data

Results flagged for a closer look

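Over 38 genes and 76 groups of 5 arrays, 5 held an array whose gap to its nearest neighbour exceeded 0.71 of the group's range (Dixon's 95% value); chance flags about 1 in 20 groups. Heph on iPGC-1β replicate 2 read 9.73, against 10.39 to 10.48 on the other arrays of its group. Ppargc1b on wild-type replicate 3 read 7.93, against 8.34 to 8.49. Neo1 on wild-type replicate 5 read 8.93, against 9.31 to 9.42, and App on the same array read 10.54, against 11.07 to 11.16. Slc25a3 on iPGC-1β replicate 3 read 13.66, against 12.79 to 13.01.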

How the results depend on the processing

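Of 28 tested genes, Slc30a1, Slc39a11 and Slc31a1 passed under all 24 alternatives, and no call changed sign. Over all genes, 694 fell, and 1077 at an adjusted p under 0.10, 1105 with array weights and 421 to 792 with 1 array left out. With each kept probe as a feature, an alternative chosen after seeing the data, 1194 probes rose and 779 fell. Metal handling genes that rose numbered 2, and 1 under median centring, no filter, the 1.5-fold minimum and the enterocyte covariate, and 1 to 2 with 1 array left out, as Tfrc lost its call. Those that fell numbered 5, and 3 under the 1.5-fold minimum and the enterocyte covariate and 3 to 6 with 1 array left out. They numbered 4 under cyclic loess and with no filter, and 7 with array weights. Under median centring, the filter at 0.01 and the threshold of 0.10 they numbered 6, as without wild-type replicate 5 and iPGC-1β replicate 3. Of the zinc genes 5 fell with array weights and without wild-type replicate 5 and iPGC-1β replicate 3. Of the iron genes 0 rose by limma under median centring, no filter, the 1.5-fold minimum and the enterocyte covariate, and 0 to 1 with 1 array left out; 0 fell under cyclic loess, no filter, the 1.5-fold minimum and the enterocyte covariate, and 0 to 1 with 1 array left out. At an unadjusted p under 0.05, 1 iron gene was higher under these settings (2 with no filter and without iPGC-1β replicate 2) and 1 lower (0 with the enterocyte covariate). Of the copper genes 0 fell without wild-type replicate 5 and iPGC-1β replicate 3. The median over the 28 genes was -0.15 under median centring, -0.22 without both arrays and between -0.19 and -0.065 with 1 array left out. Over all genes the median was -0.097 under median centring and -0.036 without both arrays. It was -0.026 without background correction and with the authors' values, and -0.014 with no filter. The zinc median was -0.12 without background correction, and -0.13 with the authors' values and with no filter; the copper median was -0.17 with the enterocyte covariate. The 1.5-fold minimum removes small changes by construction; the cause of the others was not tested. Dim probes limit what can be read: 11 of 39 genes were not above background on enough arrays. No paired analysis was possible because the labels pair no arrays across the groups.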
